A study of Mus musculus with 12 samples.

Results

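The complement system was followed here through 33 genes, taken from 23329 rows of gene counts by their symbols: 9 of the classical pathway, 4 of the lectin pathway, 4 for C3 and the alternative pathway, 4 of the terminal pathway, 4 receptors and 8 regulators. All 33 had a row in the count tables. Messenger RNA was measured in duodenum and spleen of wild type C57BL/6J mice aged 2 months, a common inbred laboratory strain, so no allele separated the groups. The 4 groups were duodenum after AC H6, duodenum after an isotype control, spleen after AC H6 and spleen after an isotype control, each with 3 libraries. AC H6 is an antibody that activates LTbR, the lymphotoxin beta receptor, which belongs to the TNF receptor family and sits on stromal, epithelial and myeloid cells; the isotype control is an antibody without that target. Each mouse had received 100 ul at 1 mg/ml, and tissue was taken 24 hours later. Whole tissue was used, so fewer cells of a type and less RNA per cell cannot be told apart. Whether replicates of a group stand for separate mice is not given in the labels, so each p-value measures only the spread among these samples, which may be technical.

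Complement is a cascade of plasma proteins that marks microbes and immune complexes for uptake and can open membranes. The classical pathway starts when C1q binds antibody or a surface and its proteases C1r and C1s cut C4 and C2; the lectin pathway reaches the same C4 and C2 through ficolins, collectins and the MASP proteases; the alternative pathway amplifies C3 cleavage through factors B and D and properdin. All 3 converge on C3, and the terminal components from C5 onwards build the membrane attack complex. The liver makes most plasma complement, whereas C1q comes largely from macrophages and dendritic cells, and intestinal epithelium and stroma make some C3 and factor B locally.

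RefSeq windows of the bases before the RefSeq start of the gene (GRCm38.p6) were matched for 21 of the 33 genes. C1qa, C1s, C2, C4a, C4b, Colec12, Masp1, Cfb, Cd93, Serping1, Cfi and Clu had no entry. The upstream sequences of C3, which had the largest log2 change of the 33 in duodenum, and of the C1q chain genes C1qb and C1qc, which were higher after AC H6 in both tissues, are shown for the genes that the results below turn on. They are printed 5′ to 3′ on the strand of the gene, and capitals mark the match to the PU.1 motif described next.
C3, chr17:57228137-57228386, minus strand: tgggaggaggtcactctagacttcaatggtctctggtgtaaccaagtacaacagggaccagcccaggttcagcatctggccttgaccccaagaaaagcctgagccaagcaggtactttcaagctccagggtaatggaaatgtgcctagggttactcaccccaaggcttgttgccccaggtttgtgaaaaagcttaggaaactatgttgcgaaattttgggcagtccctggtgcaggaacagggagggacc
C1qb, chr4:136886201-136886450, minus strand: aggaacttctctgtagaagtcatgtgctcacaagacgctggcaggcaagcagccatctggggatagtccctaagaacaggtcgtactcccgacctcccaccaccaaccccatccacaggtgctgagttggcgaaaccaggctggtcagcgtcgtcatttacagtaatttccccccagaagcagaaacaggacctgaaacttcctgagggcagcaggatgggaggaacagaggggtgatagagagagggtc
C1qc, chr4:136893066-136893164, minus strand: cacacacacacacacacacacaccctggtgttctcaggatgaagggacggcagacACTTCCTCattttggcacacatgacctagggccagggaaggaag

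The C1qc stretch is the part of its window that lies before the GENCODE M21 gene; the other 151 bases overlap that gene and are not printed. The 250 bases of each window were searched on both strands for an NF-kB motif in 2 forms, GGNNTTTCC and GGGNNTTCC, a STAT motif TTCNNNGAA, an interferon regulatory factor (IRF) motif GAAANNGAA and the PU.1 motif GAGGAAGT; the 2 NF-kB forms can overlap. C1qc held the PU.1 letters from -195 to -188 of the RefSeq start, on the other strand, as did 2.44% of all 32851 windows. C1rl and C3ar1 held the first NF-kB form (4.93% of all windows) and Cd55 the second (4.98%). C7 and Masp2 held the STAT letters (7.02%), and C5ar1 and Cd59a the IRF letters (7.13%). The windows of C3, C1qb and C1ra held none of these letters. Of the 250 bases, 202 for C5ar1 and 216 for C1ra overlap the GENCODE M21 gene. The C5ar1 match, at -66 to -58, is among those bases.

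Total counts per library ran from 13874091 to 45847467, and the 33 genes took 0.151% to 0.183% of the counts in the duodenum AC H6 libraries, 0.0774% to 0.0982% in duodenum isotype, 0.328% to 0.398% in spleen AC H6 and 0.345% to 0.387% in spleen isotype. Epithelium markers summed to 16573 CPM or more in the 6 duodenum libraries and to 39.6 CPM or less in the 6 spleen libraries, and B cell markers to 17.3 CPM or less in duodenum and 2068 CPM or more in spleen, as the tissue labels say. CPM relate a count to its library total (TMM, trimmed mean of M values), and values are listed in the order of replicates 1, 2 and 3. In hepatocyte markers 1 spleen library stood apart, AC H6 replicate 3. Their sum was 84.4 CPM there, against 2.28 to 3.12 CPM in the other 5 spleen libraries. Alb had 1169 counts there against 25 or fewer. Of the 33 genes, Hc and Cfi were over 3 times the highest other spleen library there, and of 28 other complement genes 11 were. Exocrine pancreas enzyme genes held 9.50% of duodenum AC H6 replicate 3 and 2.38% of isotype replicate 2, and Rn45s, a precursor of ribosomal RNA, took 7.56% of duodenum isotype replicate 1. Haemoglobin genes held 10.4%, 16.3% and 6.58% of the spleen isotype libraries, against 24.3%, 13.4% and 19.2% of the spleen AC H6 libraries. In spleen T cell markers summed to 338 to 373 CPM after AC H6, against 433 to 502 CPM after isotype. B cell markers there summed to 2068 to 2378 CPM, against 2634 to 2807 CPM. Of the 6 T cell and 6 B cell markers, 2 and 1 were called lower. The part of these cells in the spleen results was not tested.

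The first question was what AC H6 did to complement transcripts in the duodenum. Of the 33 genes, 31 had enough counts to be tested; 18 were higher after AC H6, 2 were lower and 11 were not called (edgeR's quasi-likelihood test, p under 0.05 after Benjamini-Hochberg adjustment). The same test called 18.5% of 15667 genes higher and 16.1% lower. The median log2 fold change was 0.52 over the 31 genes and 0.01 over all genes. C3 led with a 4.71-fold higher mean, and the C1q, C1r, C1s, C4 and properdin genes were 1.73 to 2.26 times higher. In spleen 29 of the 33 were tested, and 7 were higher and 0 lower, against 2.06% higher and 1.92% lower of 15270 genes. In edgeR 13 of the 29 had an unadjusted p under 0.05, as did 27.9% of all genes. DESeq2 called 8 of the 29, and over all genes 816 higher and 540 lower. With limma-voom 7 of the 29 were called, and over all genes 288 higher and 298 lower. The spleen median was 0.17, against -0.00 over all genes. The 7 spleen genes were C1qa, C1qb, C1qc, C1ra, C3, Cfp and C5ar1, and all 7 (100% of the spleen calls and 38.9% of the 18 duodenum rises) were also higher in duodenum. The same overlap was not counted over all genes, so whether these shares are particular to complement was not tested. The spleen count rested on few libraries: it was 1 without AC H6 replicate 1, AC H6 replicate 3, isotype replicate 1 or isotype replicate 3, 4 without isotype replicate 2, and 8 without AC H6 replicate 2.

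**Figure D1:**
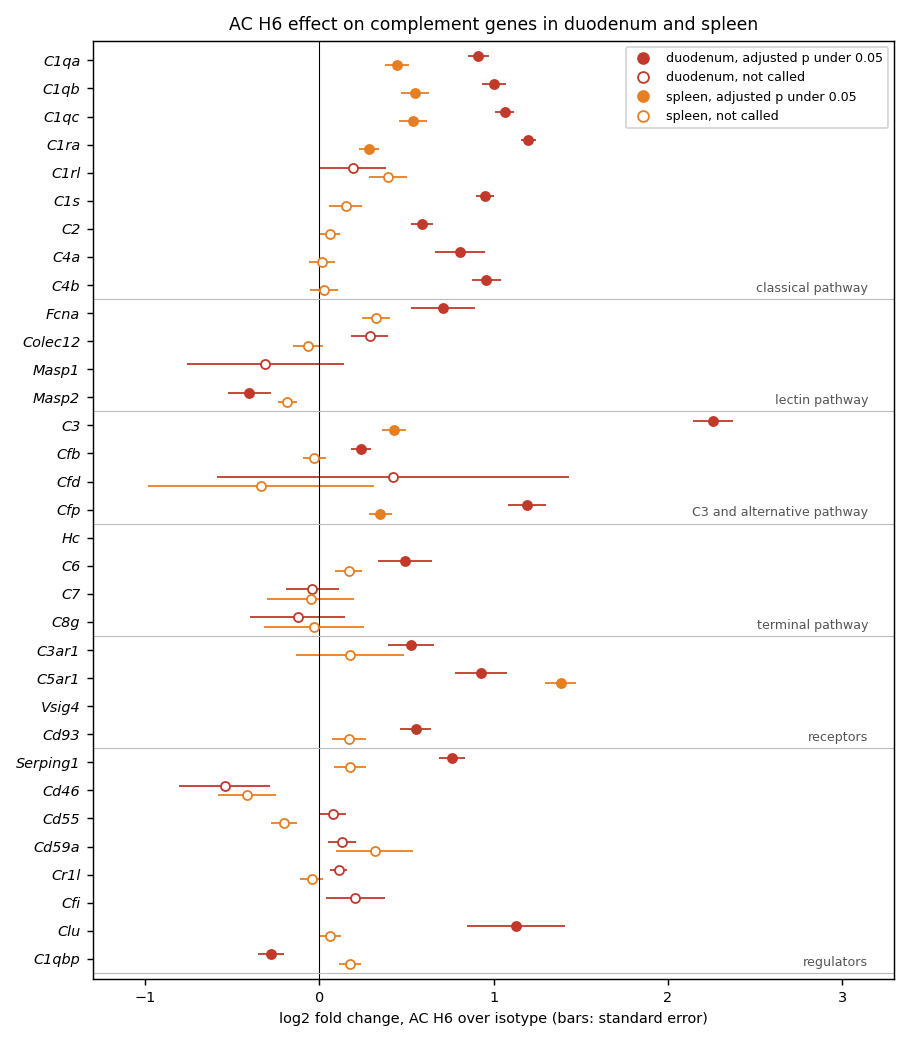
Log2 fold change of AC H6 over isotype for each complement gene, with the standard error as bars, in duodenum (red) and spleen (orange); filled points passed an adjusted p of 0.05, and genes without a point were not tested. C3 stands at 2.26 in duodenum and 0.43 in spleen, and C5ar1 is the one filled spleen point to the right of its duodenum point.

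Of the 9 classical pathway genes 8 were called higher in duodenum, beside 18.5% of all genes, and C1rl was not called. Their median log2 fold change was 0.95. In spleen 4 of 9 were called higher, beside 2.06% of all genes, and the median was 0.29. C1qa, C1qb and C1qc encode the 3 chains of C1q and lie side by side on chromosome 4 (GENCODE M21, GRCm38), where C1qa spans 136895917 to 136898803 on the minus strand. C1qa had 74.2, 67.2 and 65.8 CPM in duodenum after AC H6, against 37.0, 39.4 and 35.4 CPM after isotype. C1qb had 75.1, 64.8 and 67.5 CPM after AC H6, against 35.9, 36.9 and 32.5 CPM after isotype. C1qc had 68.9, 62.6 and 61.7 CPM after AC H6, against 30.5, 31.9 and 31.4 CPM after isotype. Every AC H6 library was above every isotype library for each chain, and the log2 fold changes were 0.91 ± 0.06, 1.00 ± 0.07 and 1.06 ± 0.05 (standard error; edgeR adjusted p = 3.30e-05, 3.95e-05 and 7.31e-06).

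The C1q chains were also higher in spleen, by smaller amounts on a higher base. C1qa had 160.2, 162 and 168 CPM in spleen after AC H6, against 118, 130.3 and 112 CPM after isotype. C1qb had 181, 182 and 185 CPM after AC H6, against 123, 139.7 and 113 CPM after isotype. C1qc had 182, 178 and 185 CPM after AC H6, against 119, 141 and 115 CPM after isotype. The groups did not overlap for any chain, and the log2 fold changes were 0.45 ± 0.07, 0.55 ± 0.08 and 0.54 ± 0.08 (edgeR adjusted p = 0.0244, 0.0233 and 0.0251). The calls of all 3 chains were lost without AC H6 replicate 1, AC H6 replicate 3, isotype replicate 1 or isotype replicate 3, with adjusted p from 0.0628 to 0.113, while over all 6 omissions the log2 fold changes stayed between 0.40 and 0.63. C1qb stood at 0.918 to 1.13 times the CPM of C1qa over the 12 libraries. C1qc stood at 0.929 to 0.938 times the CPM of C1qa in duodenum after AC H6, against 0.811 to 0.888 times after isotype, and at 1.097 to 1.13 times in spleen after AC H6, against 1.01 to 1.09 times after isotype.

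**Figure D2:**
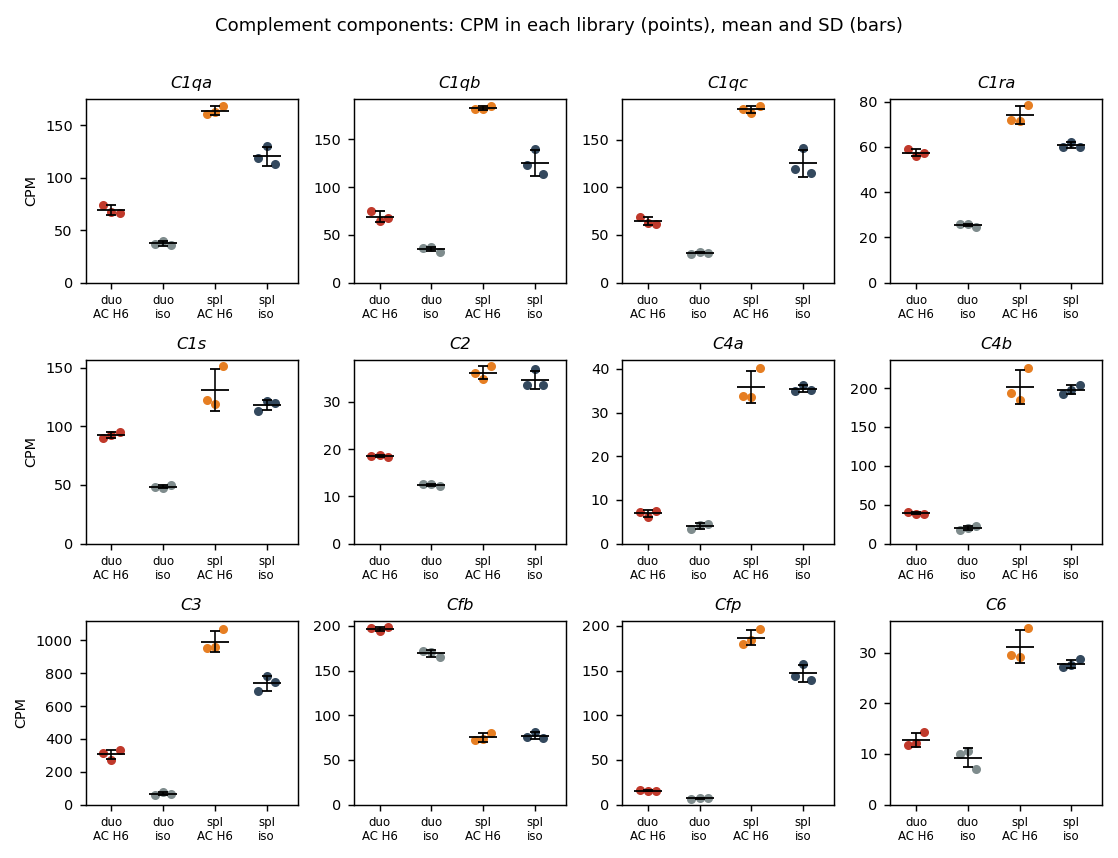
CPM of 12 complement component genes in each library (points), with group means and standard deviations (bars), n = 3 libraries a group; duo is duodenum, spl spleen and iso isotype, and each panel has its own axis from 0. In duodenum the 3 AC H6 libraries lie above the 3 isotype libraries in every panel, and in spleen they do so for C1qa, C1qb, C1qc, C1ra, C3, Cfp and C6. The panels are a chosen part of the component genes. Those without a panel include C1rl and Cfd, whose duodenum groups overlapped, and Masp2, which was lower in duodenum after AC H6. The share of all genes without overlap was not counted.

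Markers of macrophages, which make C1q, moved in part with it. The 10 macrophage markers summed to 375 to 430 CPM in duodenum after AC H6 and to 363 to 411 CPM after isotype, and none of the 10 was at 0 in either group. Mertk, a receptor for the uptake of dying cells, made up 51.6% of the isotype sum and was not called (log2 -0.35). Of the 7 macrophage markers tested in duodenum 5 were higher, among them Cd68, a lysosomal glycoprotein, by 1.06 ± 0.08 and Csf1r, the receptor of macrophage growth factor, by 0.68 ± 0.06. The summed C1q level was 0.453 to 0.582 times the summed macrophage level after AC H6, against 0.243 to 0.285 times after isotype. In spleen the macrophage sum was 1277 to 1378 CPM after AC H6, against 994 to 1073 CPM after isotype, and the C1q to macrophage ratio was 0.390 to 0.410, against 0.339 to 0.384. The part of these cells in the C1q result was not tested.

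The proteases of C1 followed C1q in duodenum. C1ra, the mouse C1r gene at chromosome 6, 124512405 to 124523443, plus strand, had 58.9, 56.1 and 57.3 CPM after AC H6, against 25.9, 25.7 and 24.8 CPM after isotype. Its libraries differed little within a group, and its log2 fold change was 1.20 ± 0.04 (edgeR adjusted p = 1.60e-06), the smallest p of the 33 genes. In spleen C1ra had 71.9, 71.6 and 78.5 CPM after AC H6, against 60.0, 62.3 and 60.0 CPM after isotype. That difference of 0.29 ± 0.06 (edgeR adjusted p = 0.0438) held in 1 of 6 omissions of a library, the one without AC H6 replicate 2, and was 0.25 without AC H6 replicate 3. C1s had 90.0, 92.7 and 95.0 CPM in duodenum after AC H6, against 48.3, 47.7 and 50.1 CPM after isotype (log2 0.95 ± 0.05). In spleen the C1s groups overlapped, at 123, 119 and 151 CPM after AC H6 and 113, 121 and 119.6 CPM after isotype, and it was not called. The highest of these values was that of AC H6 replicate 3, the library with hepatocyte transcripts, and the spleen log2 value of C1s was 0.15 with and 0.04 without it. C1rl, a C1r-like protease, stood at 3.69 ± 0.507 CPM in duodenum after AC H6 and 3.24 ± 0.780 CPM after isotype, and at 4.39 ± 0.113 and 3.33 ± 0.281 CPM in spleen after AC H6 and isotype (SD, n = 3 each). It was called in neither tissue, although its spleen groups did not overlap (log2 0.39 ± 0.11, edgeR adjusted p = 0.0855).

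C2 and the C4 genes C4b and C4a were higher in duodenum and not called in spleen. GENCODE M21 lists C4b as protein coding and C4a as a processed transcript. C2 had 18.6, 18.7 and 18.2 CPM in duodenum after AC H6, against 12.6, 12.7 and 12.3 CPM after isotype (log2 0.59 ± 0.06, edgeR adjusted p = 3.49e-04). C4b, at chromosome 17, 34728380 to 34743882, minus strand, had 40.3, 38.2 and 38.1 CPM after AC H6, against 17.8, 20.2 and 22.8 CPM after isotype (log2 0.96 ± 0.08, edgeR adjusted p = 1.29e-04). C4a had 7.23, 6.09 and 7.41 CPM after AC H6, against 3.28, 4.18 and 4.52 CPM after isotype (log2 0.80 ± 0.14). The AC H6 and isotype libraries did not overlap for any of these 3 genes. C4a and C4b are close copies whose reads can be shared, and C4b stood at 4.83 to 6.28 times the CPM of C4a in all 12 libraries. In spleen C4b had 194, 184 and 226 CPM after AC H6, against 193, 197 and 204 CPM after isotype, and its log2 value was 0.02 ± 0.08. C2 and C4a also overlapped between the spleen groups, at log2 0.06 ± 0.06 and 0.01 ± 0.08. Part of the C2 exons is shared with the read-through gene Gm20547, which runs on the same strand.

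Of the 4 lectin pathway genes 1 was called higher and 1 lower in duodenum, beside 18.5% and 16.1% of all genes, and both calls were lost in some omissions of a library. In spleen none of 3 was called by edgeR, beside 2.06% higher and 1.92% lower of all genes. Of the 3, 2 had an unadjusted p under 0.05 in edgeR, as did 27.9% of all genes. Fcna, ficolin A, which recognises acetylated sugars, had 1.79, 1.59 and 1.81 CPM in duodenum after AC H6, against 0.872, 1.14 and 1.18 CPM after isotype. Its rise of 0.71 ± 0.18 (edgeR adjusted p = 0.0181) rested on 171 counts in the AC H6 group and 80 in the isotype group, and it was lost without AC H6 replicate 1, AC H6 replicate 3 or isotype replicate 1 (adjusted p = 0.0551, 0.0526 and 0.0565) and in DESeq2. In spleen Fcna had 182, 161 and 179 CPM after AC H6, against 132, 153.5 and 132 CPM after isotype. The spleen groups did not overlap, and edgeR did not call the difference (log2 0.32 ± 0.08, adjusted p = 0.0703), while DESeq2 and the fit of all 12 libraries did. Masp2, a protease that cuts C4 and C2, had 8.16, 9.71 and 7.54 CPM in duodenum after AC H6, against 10.9, 12.8 and 10.3 CPM after isotype. The groups did not overlap; the fall was called at -0.40 ± 0.12 (edgeR adjusted p = 0.0355) and lost without AC H6 replicate 1, AC H6 replicate 3, isotype replicate 1 or isotype replicate 2 (adjusted p from 0.0595 to 0.111). Of the Masp2 exons 1817 bases overlap exons of Tardbp on the opposite strand, and the library kit did not mark strand, so reads of the 2 genes cannot be told apart there. Colec12, a scavenger receptor with a collectin domain, stood at 11.9 ± 1.31 CPM in duodenum after AC H6 and 9.90 ± 0.627 CPM after isotype, and was not called (log2 0.29 ± 0.10, edgeR adjusted p = 0.0636). In spleen Colec12 stood at 33.1 ± 3.78 and 34.6 ± 1.71 CPM. Masp1, a protease of the same family as Masp2, was near the limit of detection with 34 counts over the 3 duodenum AC H6 libraries and 32 over isotype, and 24 and 27 counts over the spleen AC H6 and isotype libraries.

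C3 showed the largest change of the 33 genes in duodenum. C3, the protein on which all pathways converge (chromosome 17, 57203970 to 57228136, minus strand), had 314, 273 and 330.2 CPM in duodenum after AC H6, against 55.8, 73.3 and 65.6 CPM after isotype. The lowest AC H6 library was far above the highest isotype library, and the log2 fold change was 2.26 ± 0.11 (edgeR adjusted p = 7.93e-06). It lay between 2.16 and 2.35 when any single library was left out. In spleen C3 had 953, 957 and 1068 CPM after AC H6, against 689, 780.04 and 748 CPM after isotype. The spleen groups did not overlap either, with a log2 fold change of 0.43 ± 0.07 (edgeR adjusted p = 0.0287), which was 0.38 without AC H6 replicate 3, and the call was lost in 5 of 6 omissions of a library (adjusted p from 0.0668 to 0.1197), all but the one without AC H6 replicate 2. After AC H6 the duodenum level of C3 per kb of exon, 59.4 ± 5.73 CPM per kb, was still below that of spleen after isotype, 144 ± 8.96 CPM per kb. Hepatocyte markers, of cells known for making C3, summed to 27.3 to 32.7 CPM in duodenum after AC H6, against 10.7 to 15.1 CPM after isotype, with Fga at 0 after AC H6 and Fga and Fgb at 0 after isotype. Stroma markers summed to 1236 to 1358 CPM after AC H6, against 901 to 1027 CPM after isotype, and epithelium markers to 16573 to 17742 CPM, against 20363 to 21978 CPM, with none of either list at 0. Of the 7 stroma markers 5 were called higher, and Pdgfra and Pdgfrb were not called (log2 -0.10 and 0.08). Of 3 hepatocyte markers tested, Ttr and Serpina1a were called higher and Alb was not called (log2 0.90, edgeR adjusted p = 0.121). Of the 7 epithelium markers 5 were called lower, all but Cdh1 and Krt20. The part of these cells in the C3 result was not tested.

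Of the alternative pathway genes, properdin rose in both tissues. Cfp encodes properdin, a stabiliser of the C3 convertase stored by neutrophils and made by myeloid cells (chromosome X, 20925454 to 20931555, minus strand). Cfp had 16.2, 14.8 and 15.1 CPM in duodenum after AC H6, against 5.80, 6.85 and 7.78 CPM after isotype, a log2 fold change of 1.19 ± 0.11 (edgeR adjusted p = 1.71e-04). In spleen it had 180.2, 184 and 196 CPM after AC H6, against 144, 158 and 139 CPM after isotype, a log2 fold change of 0.35 ± 0.07 (edgeR adjusted p = 0.0395). The groups did not overlap in either tissue; the spleen call was lost in 5 of 6 omissions of a library, all but the one without AC H6 replicate 2, and its log2 value was 0.32 without AC H6 replicate 3. Cfb, the factor B protease that joins C3b in the alternative convertase, had 198, 194 and 199 CPM in duodenum after AC H6, against 172, 171 and 165 CPM after isotype. The rise was small, without overlap, 0.24 ± 0.06 (edgeR adjusted p = 0.0154), lost without AC H6 replicate 2 or isotype replicate 3 (adjusted p = 0.0533 and 0.0564). Most of the Cfb exons, 2246 of 2825 bases, are shared with Gm20547. In spleen Cfb stood at 75.2 ± 4.67 CPM after AC H6 and 76.9 ± 4.03 CPM after isotype and was not called. Cfd, the factor D protease abundant in fat, ran from 0 to 1.35 CPM in duodenum after AC H6 and from 0.0346 to 0.747 CPM after isotype, and in spleen from 0.121 to 0.852 CPM after AC H6 and from 0.341 to 0.646 CPM after isotype; it was called in neither tissue.

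Terminal pathway genes were mostly low. C6, which binds C5b to start the membrane attack complex, had 11.7, 12.1 and 14.4 CPM in duodenum after AC H6, against 10.1, 10.6 and 7.04 CPM after isotype. The groups did not overlap, and the rise of 0.49 ± 0.15 (edgeR adjusted p = 0.0385) was lost in 5 of 6 omissions of a library, all but the one without isotype replicate 2 (adjusted p from 0.0501 to 0.104). In spleen C6 stood at 31.2 ± 3.21 CPM after AC H6 and 27.7 ± 0.803 CPM after isotype and was not called (log2 0.17 with and 0.09 without AC H6 replicate 3). C7, the next component to join, stood at 3.16 ± 0.362 CPM in duodenum after AC H6 and 3.32 ± 0.399 CPM after isotype. C8g, the lipocalin chain of C8, stood at 1.05 ± 0.278 and 1.13 ± 0.270 CPM in duodenum after AC H6 and isotype. Neither was called in either tissue, and the spleen log2 values were -0.05 ± 0.25 and -0.03 ± 0.29. Hc, the mouse name of C5, was too low to test, with 8 counts over the 3 duodenum AC H6 libraries and 3 over isotype. In spleen Hc had 12, 11 and 37 counts after AC H6, against 4, 9 and 5 after isotype; the 37 counts, 1.52 CPM, were in the library with hepatocyte transcripts, and the other 5 spleen libraries lay between 0.170 and 0.269 CPM.

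Among the receptors, the 3 that could be tested were higher in duodenum and 1 of 3 in spleen, beside 18.5% and 2.06% of all genes. C5ar1, the receptor of the anaphylatoxin C5a on neutrophils and monocytes (chromosome 7, 16246743 to 16259540, minus strand), had 9.89, 9.10 and 9.34 CPM in spleen after AC H6, against 3.69, 3.69 and 3.50 CPM after isotype. The spread within each spleen group was small beside the difference, a log2 fold change of 1.38 ± 0.09 (edgeR adjusted p = 0.00402). It was called in each of the 6 omissions of a library, at log2 1.34 to 1.41, and was 1.40 (adjusted p = 0.0413) without AC H6 replicate 3. In duodenum C5ar1 had 5.80, 5.07 and 6.68 CPM after AC H6, against 3.28, 3.42 and 2.71 CPM after isotype (log2 0.92 ± 0.15, edgeR adjusted p = 0.00239). The difference between its duodenum and spleen changes, -0.48 ± 0.17, did not pass the test (edgeR adjusted p = 0.0748). C3ar1, the receptor of C3a, had 12.1, 9.93 and 11.4 CPM in duodenum after AC H6, against 9.23, 7.92 and 6.64 CPM after isotype. Its rise of 0.52 ± 0.13 (edgeR adjusted p = 0.0160) was lost without AC H6 replicate 1 (adjusted p = 0.0582) and in the fit of all 12 libraries (adjusted p = 0.0636), and in spleen it stood at 1.05 ± 0.193 CPM after AC H6 and 0.958 ± 0.343 CPM after isotype, without a call. Cd93, a surface C-type lectin of endothelium and myeloid cells once described as a C1q receptor, had 25.4, 26.9 and 27.6 CPM in duodenum after AC H6, against 17.9, 20.9 and 16.4 CPM after isotype (log2 0.55 ± 0.09, edgeR adjusted p = 0.00234). In spleen Cd93 overlapped between the groups. Vsig4, a C3b receptor of tissue macrophages, was too low to test: 3 counts in each duodenum group, 30 over spleen AC H6 and 14 over spleen isotype.

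**Figure D3:**
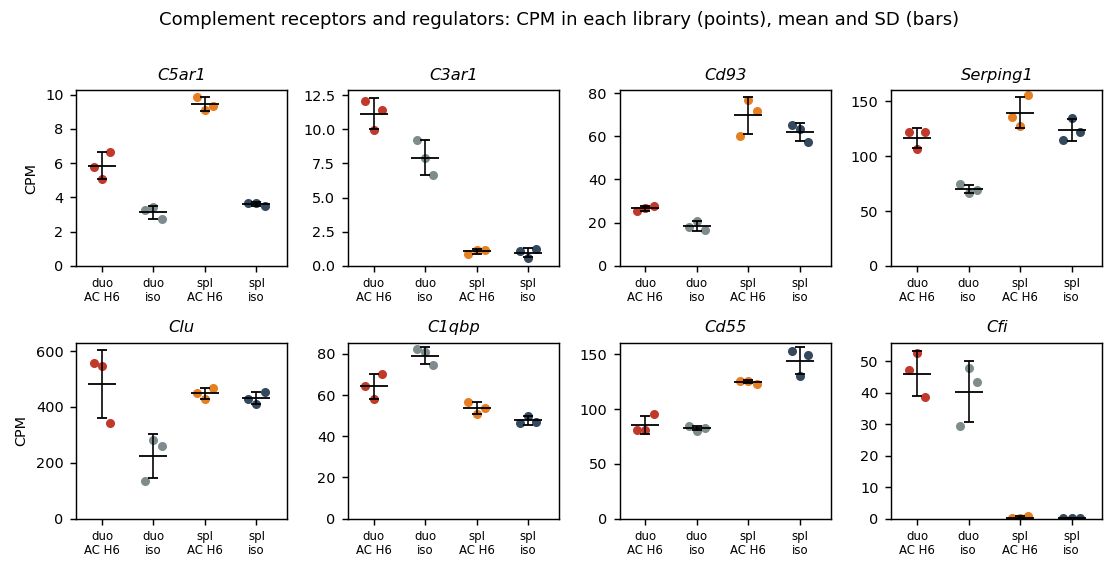
CPM of 8 complement receptor and regulator genes in each library (points), with group means and standard deviations (bars), n = 3 libraries a group; duo is duodenum, spl spleen and iso isotype, and each panel has its own axis from 0. C5ar1 separates the AC H6 libraries from the isotype libraries in both tissues, and Clu in duodenum has 1 AC H6 library at 341 CPM and 1 isotype library at 133 CPM apart from the others of their group.

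Summed levels of markers of neutrophils and monocytes, which carry C5ar1, were higher in the same libraries. The 11 neutrophil markers summed to 98.3 to 117 CPM in duodenum after AC H6, against 58.0 to 62.9 CPM after isotype, and to 1585 to 2268 CPM in spleen after AC H6, against 533 to 822 CPM after isotype. The 5 monocyte markers summed to 31.7 to 38.1 CPM in duodenum after AC H6, against 16.9 to 18.05 CPM after isotype, and to 274 to 320 CPM in spleen after AC H6, against 136 to 178 CPM after isotype. No marker of either list was at 0 in any group, and the sums did not overlap between treatments in either tissue. Of the 9 neutrophil markers tested in duodenum, Csf3r, Cxcr2, Mmp9, S100a8 and S100a9 were called higher, Retnlg was called lower (-0.59 ± 0.16, edgeR adjusted p = 0.0248), and Lcn2, Ngp and Ltf were not called (log2 -0.71, -0.07 and 0.42). In spleen 10 of 11 neutrophil markers were called higher, all but Retnlg (log2 0.44). Of the 5 monocyte markers 4 were called higher in each tissue, all but Vcan in duodenum (log2 0.02) and Ccr2 in spleen (log2 -0.12). Their part in the C5ar1 and Cfp results was not tested.

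**Figure D4:**
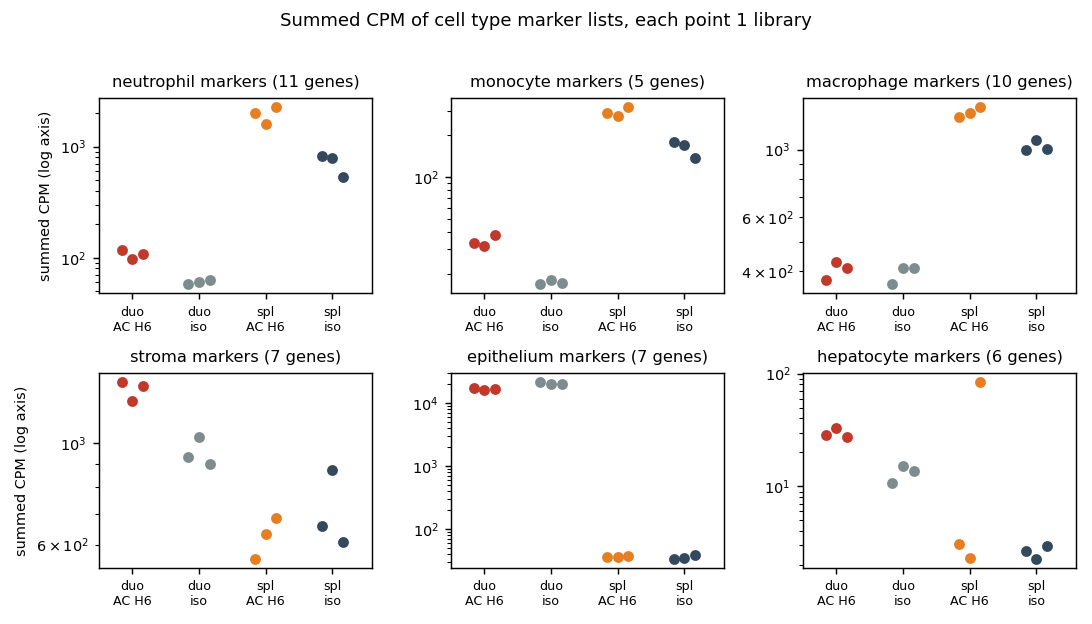
Summed CPM (log axis) of 6 marker lists, with 1 point per library; duo is duodenum, spl spleen and iso isotype. Neutrophil and monocyte sums are higher after AC H6 in both tissues, macrophage sums overlap in duodenum, and 1 spleen AC H6 library stands at 84.4 CPM for hepatocyte markers.

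In duodenum 2 of 8 regulators were higher, 1 was lower and 5 were not called, beside 18.5% higher and 16.1% lower of all genes. Their median log2 fold change was 0.12. In spleen none of 7 was called by edgeR, DESeq2 or limma-voom, beside 2.06% higher and 1.92% lower of all genes in edgeR. Of the 7 regulators, 3 had an unadjusted p under 0.05 in edgeR, as did 27.9% of all genes. Serping1, the C1 inhibitor that blocks C1r, C1s and the MASPs, had 122, 107 and 122 CPM in duodenum after AC H6, against 74.3, 66.8 and 69.0 CPM after isotype (log2 0.76 ± 0.08, edgeR adjusted p = 2.46e-04). Every AC H6 library was above every isotype library. In spleen it stood at 139.7 ± 14.3 CPM after AC H6 and 124 ± 10.4 CPM after isotype, and was not called. Clu, clusterin, a chaperone that binds the terminal complex, had 558, 548 and 341 CPM in duodenum after AC H6, against 133, 279.6 and 260.4 CPM after isotype. There was no overlap but a wide spread, and the rise of 1.13 ± 0.28 (edgeR adjusted p = 0.0153) was lost without AC H6 replicate 1 or 2 (adjusted p = 0.0543 and 0.0559) and ranged from 0.87 to 1.32 over the 6 omissions of a library. In spleen Clu stood at 449 ± 19.3 CPM after AC H6 and 431 ± 22.1 CPM after isotype.

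C1qbp, a mostly mitochondrial protein named for binding C1q, was the second gene called lower in duodenum. C1qbp had 64.3, 58.3 and 70.2 CPM after AC H6, against 82.2, 80.9 and 74.4 CPM after isotype. All AC H6 libraries were below all isotype libraries, and the change of -0.28 ± 0.08 (edgeR adjusted p = 0.0221) was lost without AC H6 replicate 1, AC H6 replicate 2, isotype replicate 1 or isotype replicate 2 (adjusted p from 0.0543 to 0.0671). In spleen it had 56.6, 51.0 and 53.6 CPM after AC H6, against 46.3, 49.95 and 46.7 CPM after isotype, without overlap and in the opposite direction, but was not called (log2 0.18 ± 0.06, edgeR adjusted p = 0.128). The surface regulators that protect host cells were not called in either tissue. In spleen Cd55 and Cd46 had log2 values of -0.20 ± 0.07 and -0.42 ± 0.17 (edgeR unadjusted p = 0.0250 and 0.0394, adjusted p = 0.134 and 0.162). Cd59a and Cr1l had spleen log2 values of 0.32 ± 0.22 and -0.05 ± 0.07. Cd55, which takes apart C3 convertases, stood at 85.6 ± 8.45 CPM in duodenum after AC H6 and 82.5 ± 2.06 CPM after isotype, and at 125 ± 1.44 and 144 ± 12.1 CPM in spleen after AC H6 and isotype. Cd59a, which blocks the terminal complex, stood at 11.9 ± 0.756 CPM in duodenum after AC H6 and 11.1 ± 0.295 CPM after isotype. Cr1l, known as Crry and the main C3 convertase regulator of mouse cells, stood at 59.1 ± 1.13 and 55.6 ± 2.63 CPM there, with a log2 value of 0.11 ± 0.05. Cd46, a cofactor for factor I that mice express mainly in testis, was low, at 0.459 ± 0.0695 CPM in duodenum after AC H6 and 0.695 ± 0.154 CPM after isotype (log2 -0.54 ± 0.26, edgeR adjusted p = 0.141), and its exons overlap a gene on the opposite strand. Cfi, the factor I protease that cuts C3b and C4b, had 47.1, 52.5 and 38.5 CPM in duodenum after AC H6, against 29.5, 48.0 and 43.5 CPM after isotype, and the groups overlapped. In spleen Cfi had 2, 3 and 19 counts after AC H6, against 2, 2 and 2 after isotype, the 19 counts being in the library with hepatocyte transcripts. Reads of Cd55 and Cd59a can be shared with their close copies Daf2 and Cd59b.

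The next question was whether the change differed between tissues. The interaction of tissue and treatment, fitted on all 12 libraries, called 12 of 31 complement genes higher, that is with a larger log2 change in duodenum than in spleen, and 1 lower; over all 16655 genes 10.9% were higher and 9.13% lower. For C3 the duodenum change exceeded the spleen change by 1.81 ± 0.14 (edgeR adjusted p = 1.16e-05), and for C1ra by 0.89 ± 0.07 (edgeR adjusted p = 1.49e-05). The other genes with a larger duodenum change were C4b, C1s, C4a, C2, C1qa, C1qb and C1qc of the classical pathway, Cfp, Serping1 and Clu, by 0.43 to 1.05. Among the 9 classical genes only C1rl was not called here. The call of Clu was lost in 8 of 12 omissions of a library, and that of C1qb without duodenum AC H6 replicate 1 or duodenum isotype replicate 3. Cfb, with a duodenum change larger by 0.25 ± 0.08, was not called by edgeR (adjusted p = 0.0535), while DESeq2 and limma-voom called it. C1qbp had the opposite sign, -0.47 ± 0.10 (edgeR adjusted p = 0.00839). No lectin pathway gene, terminal pathway gene or receptor was called by edgeR, DESeq2 or limma-voom. Of them 2 of 4, 0 of 3 and 2 of 3 had an unadjusted p under 0.05 in edgeR, as did 33.6% of all genes.

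Under isotype the arms differed in level between the tissues. Of 30 genes tested, 7 were higher and 19 lower in duodenum than in spleen, and 4 were not called, against 42.2% higher and 43.8% lower of 16029 genes, so that calls were common throughout. The classical pathway was lower in duodenum for 8 of 9 genes, with log2 ratios from -1.28 for C1ra to -3.31 for C4b. Fcna differed most among the genes lower in duodenum, at 1.06 ± 0.167 CPM in duodenum and 139 ± 12.3 CPM in spleen (log2 -7.03 ± 0.12). Cfp and C3 were lower in duodenum with log2 ratios of -4.45 ± 0.11 and -3.53 ± 0.11, Colec12, Masp2, Cd93 and C6 with ratios from -1.61 to -1.83, and Cd46, Clu, Serping1 and Cd55 with ratios from -0.83 to -1.32. C1rl, Cfd, C5ar1 and Cr1l were not called; Cr1l stood at 55.6 ± 2.63 CPM in duodenum and 53.3 ± 3.70 CPM in spleen.

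The genes higher in duodenum came from other arms. Cfi stood at 40.3 ± 9.64 CPM in duodenum and 0.0764 ± 0.0338 CPM in spleen, where the 3 isotype libraries held 6 counts in all; the ratio of summed counts scaled for depth was 417, with an exact 95% interval of 192 to 1138 that covers counting error only. C3ar1 was higher in duodenum by 3.08 ± 0.27, C7 by 2.60 ± 0.20, Cfb by 1.11 ± 0.05, C1qbp by 0.71 ± 0.06 and Cd59a by 0.52 ± 0.14 on the log2 scale (edgeR adjusted p of 0.00701 or less). C8g was higher by 0.95 ± 0.31 (edgeR adjusted p = 0.0202), a call lost in 4 of 6 omissions of a library: without duodenum isotype replicate 2 or 3 and without spleen isotype replicate 1 or 3. C3ar1 and C5ar1, the 2 anaphylatoxin receptors, thus differed in their tissue pattern: C3ar1 had 7.93 ± 1.29 CPM in duodenum and 0.958 ± 0.343 CPM in spleen, whereas C5ar1 had 3.14 ± 0.376 and 3.63 ± 0.108 CPM.

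Levels per kb of exon set the genes in order within a tissue. In duodenum after isotype Clu at 65.3 ± 23.2 CPM per kb and Cfb at 60.0 ± 1.33 CPM per kb came first and did not differ beyond their spread. C1qa, C1qb, Serping1, C1qbp, Cfi and Cd55 followed between 35.8 and 16.99 CPM per kb, and C3 was in place 11 at 12.6 ± 1.71 CPM per kb. In spleen after isotype C3 came first at 144 ± 8.96 CPM per kb, ahead of Clu at 125 ± 6.42, C1qa at 116 ± 8.75, C1qb at 115 ± 12.3, Fcna at 101 ± 8.94 and Cfp at 84.6 ± 5.59 CPM per kb. C1qa and C1qb did not differ beyond their spread in spleen. In duodenum C1qa, at 34.0 to 37.9 CPM per kb, was above C1qb, at 29.8 to 33.9 CPM per kb, by a narrow gap. That order rests on the GENCODE M21 exon lengths, 1040 bases for C1qa and 1088 for C1qb. The annotation used for counting is not given, so the order of these 2 chains in duodenum is not settled. The lowest 4 were Cd46, Masp1, Vsig4 and Hc in duodenum, and Vsig4, Cfi, Hc and Masp1 in spleen, each under 0.1 CPM per kb.

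**Figure D5:**
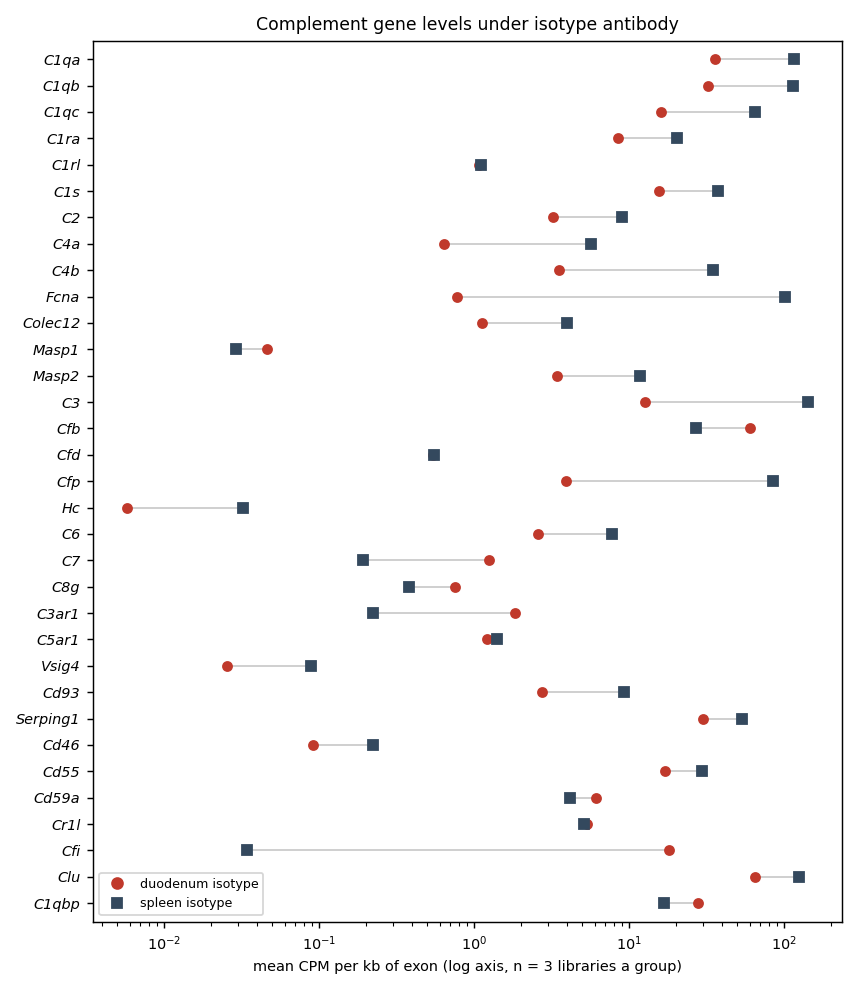
Mean level under isotype in CPM per kb of exon (log axis, n = 3 libraries a group) of the 33 complement genes, with duodenum as red circles, spleen as dark squares and a grey line joining them. Cfi, C3ar1, C7 and Cfb lie higher in duodenum, and Fcna, Cfp, C3 and the C4 genes higher in spleen.

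Of 28 other complement genes with a row, 19 were tested in duodenum, of which 7 were higher, 3 lower and 9 not called after AC H6, beside 18.5% higher and 16.1% lower of all genes. C1rb, the second mouse C1r gene and a close copy of C1ra, had 23.4, 21.8 and 22.1 CPM after AC H6, against 8.10, 9.96 and 9.20 CPM after isotype (log2 1.32 ± 0.08). Itgam, Itgax and Itgb2, the chains of complement receptors 3 and 4 on leukocytes, were higher by 0.48 ± 0.09, 0.95 ± 0.06 and 0.82 ± 0.06, and the second C5a receptor C5ar2, named Gpr77 in the tables, by 0.95 ± 0.22. C4bp, a soluble C4b-binding regulator, was higher by 1.52 ± 0.17 and the pentraxin Crp by 2.14 ± 0.24, at 7.19 ± 0.685 and 1.68 ± 0.180 CPM after AC H6, against 2.59 ± 0.601 and 0.393 ± 0.106 CPM after isotype.

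Of the genes that fell, Cfhr2, a factor H related gene, had 3.67, 3.77 and 3.73 CPM after AC H6, against 9.13, 8.61 and 12.6 CPM after isotype (log2 -1.42 ± 0.16), and Ptx3, a pentraxin that binds C1q, changed by -1.34 ± 0.30. Mbl2, mannose-binding lectin C, had 2, 0 and 1 counts after AC H6, against 12, 54 and 53 after isotype; the ratio of summed counts scaled for depth was 0.0202, with an exact 95% interval of 0.00411 to 0.0605. In spleen 3 of 14 were higher and none lower, beside 2.06% and 1.92% of all genes: Itgam by 0.85 ± 0.07, the neutrophil ficolin Fcnb by 1.52 ± 0.21 and C1rb by 0.28 ± 0.06 (edgeR adjusted p = 0.00822, 0.0198 and 0.0470). Without AC H6 replicate 3 their log2 values were 0.83, 1.42 and 0.25, and the calls of Fcnb and C1rb were lost; Fcnb was also lost without AC H6 replicate 1 or isotype replicate 1, and C1rb in 5 of 6 omissions, all but the one without AC H6 replicate 2. The interaction called C1rb (1.02), Itgax (1.02), Itgb2 (0.58) and Susd4 (1.26), a complement inhibitor, higher and Cfhr2 (-2.09) and Itgam (-0.39) lower; those of Itgam and Susd4 were lost in 9 and 10 of 12 omissions of a library.

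Between the tissues under isotype, 8 of 20 tested other complement genes were higher and 8 lower in duodenum, shares close to the 42.2% and 43.8% of all genes. The lower ones were Cr2, the complement receptor of B cells and follicular dendritic cells, with 0.410 ± 0.0889 CPM in duodenum and 318 ± 49.1 CPM in spleen, Fcnb, Csmd1, Itgb2, Itgax, Gpr77, Itgam and C1rb. The higher ones were Colec10, Cpn1, Cpn2, Vtn, C4bp, Mbl2, Ptx3 and Cfhr2. Colec10, Cpn2 and Vtn were at least 231-fold, 79.4-fold and 31.1-fold higher in duodenum than in the 3 spleen isotype libraries, which had 0 counts of each, taking 3 counts over the group as the floor. C4bp, Mbl2 and Ptx3 had 186, 119 and 57 counts in duodenum and 3, 1 and 1 in those spleen libraries, with exact 95% intervals of the ratio of 17.04 to 248, 17.1 to 3867 and 8.02 to 1869, and Fcnb had 1 count in duodenum and 436 in spleen.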

How the data were processed

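For each of the 12 libraries the authors deposited raw counts per gene, which per the file headers include reads that match at several places. The submitters' processing notes name the mm10 build and the tools STAR 2.3, bcl2fastq 2.19, Trimmomatic and edgeR, with no role for any; which tool counted reads, and on which annotation, is not given in the sources used here. Per the labels' protocols, libraries were made from total RNA with a TruSeq RNA kit, in which strand is not marked; brains are named in that protocol, whereas the tissue labels give spleen and duodenum. Treatment and tissue labels set the groups.

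The deposited counts, joined by gene name, were tested with edgeR 4.0.16 in R 4.3.3: filterByExpr, trimmed mean of M values scaling, glmQLFit and glmQLFTest, on the 6 libraries of each comparison, or on all 12 for the interaction, without covariates, with p-values adjusted over all genes tested. The standard error is the log2 fold change divided by the square root of F. CPM shown use 1 scaling over the 12 libraries, which moves log2 ratios by at most 0.026. Alternatives were DESeq2 1.42.0, limma-voom 3.58.1, relative log expression size factors, no filter, a stricter filter, 1 fit of all libraries, totals without haemoglobin, Rn45s, Lars2 and pancreatic enzyme genes, a replicate block, and each library left out. Tests were tested on simulated data with known changes. Of genes changed 1.5-fold, 24 of 66 were recovered in spleen, 39 of 67 in duodenum, 34 of 66 between tissues and 8 of 65 for the interaction. Of genes changed 2-fold, 55 of 67, 64 of 67, 58 of 67 and 45 of 65 were recovered. Unchanged genes made up 14 of 156, 12 of 179, 8 of 165 and 6 of 117 calls. Gene positions and exon lengths are those of GENCODE M21 on GRCm38, counted from 1.

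The members and lists were chosen with earlier results of these data known. Every member is accounted for, and each other complement gene past a test is named; C1s2 and Cfhr3 were not analysed here. Intervals and floors cover counting error only. No library was a repeat of another: within each group, pairs of libraries differed by a chi-square of 24.6 or more per degree of freedom.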

Additional observations from a re-analysis of the deposited data

Results flagged for a closer look

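For 13 complement genes the AC H6 change differed between duodenum and spleen by the test of the difference itself (edgeR interaction of tissue and treatment, adjusted p under 0.05 over all genes). As duodenum change minus spleen change on the log2 scale, the difference was 1.81 for C3, 1.05 for Clu, 0.92 for C4b, 0.89 for C1ra, 0.82 for Cfp, 0.78 for C1s, 0.77 for C4a, 0.56 for Serping1, 0.51 for C1qc, 0.51 for C2, 0.45 for C1qa and 0.43 for C1qb. It was -0.47 for C1qbp, which was lower after AC H6 in duodenum and not called in spleen. The Clu call was lost in 8 of 12 omissions of a library. Groups of 3 libraries are too small for the check on single outlying samples, which was therefore not run.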

How the results depend on the processing

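The replicate numbers were not taken as pairs: correlations of same-numbered libraries were 0.169, -0.041 and -0.016 in spleen, 0.344, 0.180 and -0.162 in duodenum, 0.131, 0.317 and 0.0948 between the isotype groups, and 0.109, 0.0961 and -0.127 between the AC H6 groups. Each isotype library correlated best with its own number across tissues, a hint from the data, not the design; the AC H6 libraries did not. With the replicate number as a block in edgeR, the spleen count of 7 was 0, and over all genes 1 was called. C5ar1 had an edgeR adjusted p of 0.0599 in that fit. Of the complement genes 12 had an unadjusted p under 0.05 there, as did 24.0% of all genes. The counts in duodenum, between tissues and for the interaction were 20, 26 and 12 with the block, against 20, 26 and 13. A block shared across tissues within each treatment, chosen after seeing the data, gave 14 for the interaction, with Cd93 added. With a library left out the spleen count ran from 1 to 8, the duodenum count from 15 to 18, the tissue count from 25 to 26 and the interaction count from 11 to 14; the cause was not tested, though each such fit has fewer samples. Over DESeq2, limma-voom, other scaling, both filters, 1 fit of all libraries and totals without the abundant genes, the counts were 6 to 8, 19 to 20, 26 to 27 and 13 to 14. No called log2 value changed sign among the alternatives run; values that were not called changed sign 47 times, over 14 genes, as for Cfd in duodenum (log2 0.42, and -1.13 without AC H6 replicate 3). Low counts left Hc, Vsig4 and, in spleen, Masp1 and Cfi untested.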
